A study of Mus musculus with 576 samples.

Results

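The genes described here are 30 genes of cholesterol and fatty acid synthesis, found by matching a list of symbols to the 49466 genes of the deposited counts, and all 30 were found. They comprise 17 enzymes of the sterol pathway, 6 enzymes of fatty acid synthesis, 5 regulators of the pathway, the sterol carrier Stard4 and the thiolase Acat2. They were followed in cells of the C57/Bl6J mouse strain that were sorted from fetal liver at embryonic day 14.5 for burst forming unit-erythroid (BFU-E), progenitors already committed to the red lineage. The dexamethasone groups grew for 24, 48 or 72 hours (days 1, 2 and 3) with 100 nM dexamethasone, a synthetic glucocorticoid. The control groups grew for the same times without it. All groups shared a serum-free medium with stem cell factor (100 ng/mL), insulin-like growth factor 1 (40 ng/mL) and erythropoietin (2 U/mL). Each of the 6 combinations of day and treatment was 1 plate of 96 wells with a cell per well, so there was 1 sample per group. The number of animals behind a plate is not given in the sources used here.

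Cells build cholesterol from acetyl-CoA through the mevalonate pathway, squalene and lanosterol, and they build fatty acids from acetyl-CoA and malonyl-CoA. Both arms are transcribed under the sterol regulatory element binding proteins (SREBPs), encoded by Srebf1 and Srebf2. Scap escorts the SREBP precursors out of the endoplasmic reticulum when sterols are low, and the Insig proteins hold them back when sterols are plentiful. Dividing progenitors need both products for new membrane, while maturing red cell precursors shrink and lose organelles.

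Of 575 wells matched to their labels, 563 were kept as cells, 92 to 94 per dexamethasone plate and 93 to 96 per control plate. Plate totals ran from 88178493 to 116623968 counts, and plate medians per cell from 922603 to 1244026 counts. The same 96 index pairs served on all 6 plates, and each plate held 1 group, so that a plate effect and a treatment effect within a day cannot be told apart. All 8 erythroid progenitor markers were detected, with summed levels of 2436 to 3254 CPM (counts scaled by the plate's total) on dexamethasone plates and 2778 to 7138 CPM on control plates. Tfrc was the largest part of this sum, with 783, 1474 and 1592 CPM with dexamethasone, against 1358, 3719 and 4980 CPM in control. Kit stood at 508, 761 and 279 CPM with dexamethasone, against 319, 133 and 47.6 CPM in control. Car1 was also higher with dexamethasone on each day, while Gata1, Klf1 and Tfrc were lower and Epor, Tal1 and Nfe2 were mixed. The 6 late erythroid markers, 2 of them globins, summed to 52.9, 296 and 2754 CPM on dexamethasone days 1, 2 and 3, against 164.7, 7059 and 12988 CPM on control days. The 10 neutrophil and monocyte markers summed to 331 to 588 CPM with dexamethasone and 3.64 to 1821 CPM in control, and 50 cells carried at least 2 of them at 10 CPM or more. The 6 megakaryocyte markers summed to 315, 373 and 230 CPM with dexamethasone, against 306.5, 83.8 and 80.2 CPM in control. The 5 mast cell and basophil markers summed to 15.7, 132.6 and 1.71 CPM with dexamethasone, against 30.4, 0 and 32.99 CPM in control. Of 7 hepatocyte markers Ttr and Serpina1a had no count on any plate and the sum stayed at or below 3.52 CPM, and of 6 macrophage markers C1qa, C1qb, C1qc and Cd5l had none.

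All 30 genes were expressed at a mean of at least 10 CPM over the 6 plates, and 26 of them at 50 CPM or more. Per kilobase of annotated exon, the highest mean levels were those of Hmgcs1 (119.9 CPM per kb), Acly (103 CPM per kb) and Cyp51 (99.1 CPM per kb). The lowest were those of Acaca (2.34 CPM per kb), Tm7sf2 (5.78 CPM per kb) and Insig2 (6.46 CPM per kb). In the GENCODE vM21 annotation of GRCm38, Msmo1 lies at chr8:64718139-64733792, Hsd17b7 at chr1:169949535-169969241, Fasn at chr11:120805846-120824547, all on the minus strand, and Insig1 at chr5:28071363-28078662 on the plus strand. None of these 4 shares exonic bases with another gene. Whether counting used strand is not given in the sources used here, so reads of genes that overlap on opposite strands cannot be told apart. This matters most for Fdft1 (chr14:63145150-63179578, GRCm38, minus strand), which shares 774 exonic bases with the cathepsin gene Ctsb on the other strand. Ctsb stood at 213, 223 and 562 CPM on dexamethasone days 1, 2 and 3, against 263, 664 and 1546 CPM on control days, and its part in the Fdft1 values was not tested. Exons of Hmgcs1, Idi1, Fdps, Lss, Cyp51, Tm7sf2, Srebf1, Scap, Scd2 and Elovl6 also overlap those of other annotated genes, and their counts may hold or lack such reads.

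The RefSeq promoter table (GRCm38.p6) held windows of 250 bases before to 50 bases after the start for 24 of the 30 genes. The windows of 3 genes are printed 5′ to 3′. Msmo1, of the late sterol steps, and Fasn, of fatty acid synthesis, are shown because they differed between days in opposite directions. Hmgcs1, of the mevalonate steps, is shown because its window, alone among those of these genes, held a match to the sterol regulatory element searched. Its own fitted log2 values were 0.12 for day 3 against day 1 and 0.04 for dexamethasone, neither called by edgeR or DESeq2. Capitals mark the letters TCACNCCAC, a form of the sterol regulatory element that SREBPs bind, and CCAAT, a motif of the cofactor NF-Y, each on either strand (ATTGG is CCAAT on the other strand).
Hmgcs1 (chr13:119690101-119690400, plus strand): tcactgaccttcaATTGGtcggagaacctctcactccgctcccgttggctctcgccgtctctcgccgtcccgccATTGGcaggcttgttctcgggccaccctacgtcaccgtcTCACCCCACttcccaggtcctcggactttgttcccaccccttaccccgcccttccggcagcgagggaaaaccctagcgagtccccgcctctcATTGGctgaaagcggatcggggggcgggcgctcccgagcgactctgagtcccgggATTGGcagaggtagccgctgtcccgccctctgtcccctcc
Msmo1 (chr8:64733529-64733828, minus strand): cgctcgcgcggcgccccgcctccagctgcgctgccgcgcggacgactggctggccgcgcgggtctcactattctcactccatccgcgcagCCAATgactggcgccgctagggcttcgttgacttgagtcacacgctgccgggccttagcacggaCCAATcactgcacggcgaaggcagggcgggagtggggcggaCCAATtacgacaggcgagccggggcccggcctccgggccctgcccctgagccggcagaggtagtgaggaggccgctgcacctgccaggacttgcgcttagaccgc
Fasn (chr11:120824498-120824797, minus strand): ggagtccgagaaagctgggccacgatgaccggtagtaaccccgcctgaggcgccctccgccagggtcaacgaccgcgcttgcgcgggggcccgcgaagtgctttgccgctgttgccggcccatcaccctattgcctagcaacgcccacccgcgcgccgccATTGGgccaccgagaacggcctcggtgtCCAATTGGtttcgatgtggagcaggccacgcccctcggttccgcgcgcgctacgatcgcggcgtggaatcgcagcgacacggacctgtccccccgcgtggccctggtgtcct
The TCACNCCAC letters occurred in 1.24% of 32851 windows of all genes, and among the 32 windows of these genes in 1, that of Hmgcs1. CCAAT occurred in 37.4% of all windows and in 21 of the 32 (65.6%). The GC box GGGCGG was in 35.7% of all windows and in 24 of the 32 (75%). Hmgcs1 had 4 CCAAT matches, Msmo1 3 and Fasn 3, of which the last 2 in Fasn overlap. A match describes these letters only and was not tested as a binding site.

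**Figure D1:**
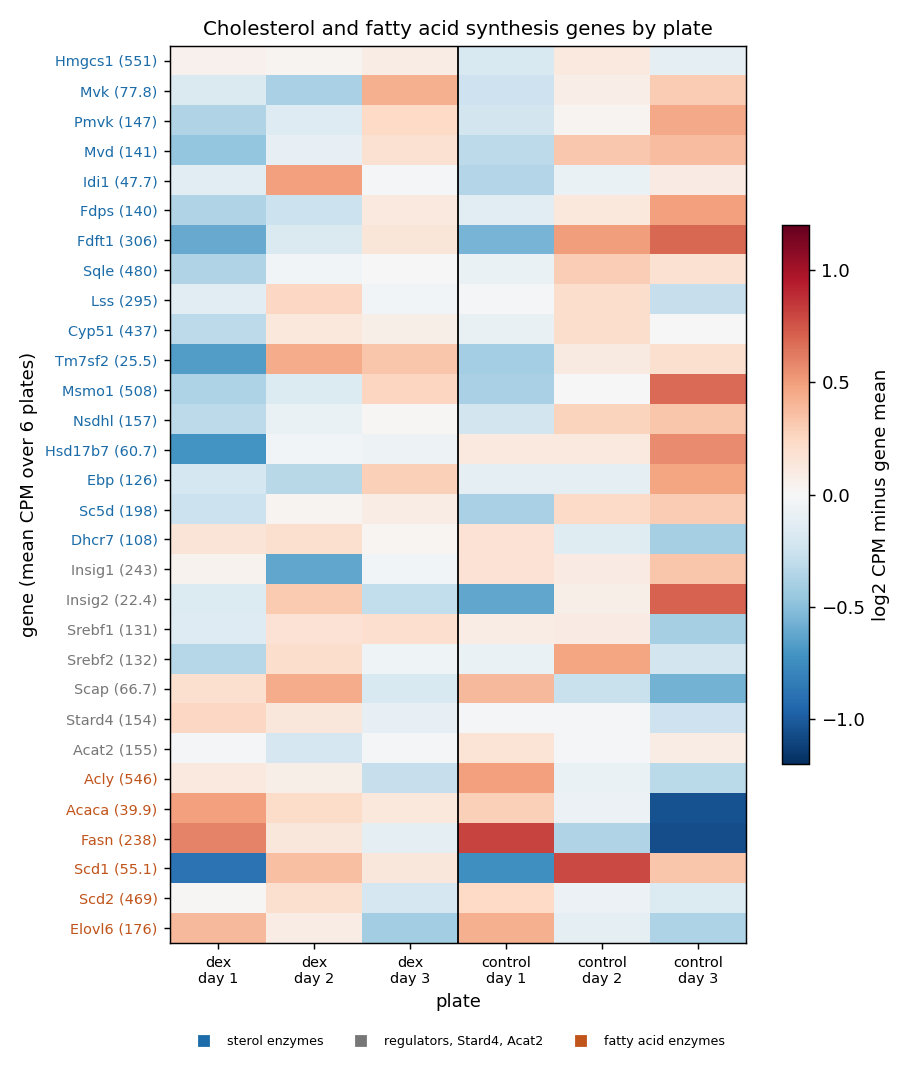
Levels of the 30 genes on the 6 plates, as log2 CPM minus each gene's own mean over the plates, with dexamethasone plates left of control plates and the mean CPM after each symbol. The sterol enzymes are mostly bluer on day 1 and redder on day 3 in both treatments, while Acly, Acaca, Fasn and Elovl6 run the other way, with the darkest blue for Fasn (104 CPM) and Acaca (18.35 CPM) on control day 3.

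The mevalonate steps, which turn acetyl-CoA units into the isoprenoid farnesyl diphosphate, were present at all times and mostly higher on the later days. Hmgcs1, which makes HMG-CoA, the precursor of mevalonate, stood at 568, 562 and 583 CPM on dexamethasone days 1, 2 and 3, against 484, 596 and 511 CPM on control days. Mvk, the mevalonate kinase, stood at 67.6, 58.2 and 102 CPM with dexamethasone, against 64.1, 80.5 and 94.1 CPM in control. Pmvk, which adds the second phosphate, stood at 113, 129.5 and 170.2 CPM with dexamethasone, against 124, 148 and 199 CPM in control. Hmgcs1 showed no steady order over the days, whereas both kinases had their highest value on day 3 in both treatments. Mvd, which decarboxylates the product to isopentenyl diphosphate, stood at 100.0, 128 and 156 CPM with dexamethasone, against 111, 172 and 177 CPM in control. Idi1, the isomerase that makes the second building block, stood at 42.8, 65.98 and 46.2 CPM with dexamethasone, against 36.9, 44.4 and 50.3 CPM in control. Fdps, which joins the blocks to farnesyl diphosphate, stood at 107, 115 and 149 CPM with dexamethasone, against 126, 150.5 and 194 CPM in control. Pmvk, Mvd and Fdps were lower with dexamethasone on each of the 3 days, although their ranges over the plates overlapped between treatments.

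The next steps commit farnesyl diphosphate to sterols and close the ring. Fdft1, the squalene synthase, stood at 191, 257 and 319 CPM on dexamethasone days 1, 2 and 3, against 196, 409.9 and 466 CPM on control days, with the reads shared with Ctsb named above. Sqle, the squalene epoxidase and a rate-limiting step, stood at 369, 464 and 475 CPM with dexamethasone, against 448, 584 and 539 CPM in control. Lss, which closes squalene epoxide to lanosterol, stood at 267, 347 and 285 CPM with dexamethasone, against 289.9, 339 and 241 CPM in control. Fdft1 was higher on each later day in both treatments, Sqle was lowest on day 1 in both, and Lss peaked on day 2 in both.

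The late steps strip the methyl groups of lanosterol and move its double bonds. Cyp51, the lanosterol demethylase, stood at 349, 474 and 456 CPM with dexamethasone, against 409.7, 502 and 434 CPM in control. Tm7sf2, a sterol reductase of the following step, stood at 15.5, 33.3 and 30.8 CPM with dexamethasone, against 18.5, 26.5 and 28.1 CPM in control. Msmo1, the sterol C4-methyl oxidase, stood at 378, 436 and 586 CPM with dexamethasone, against 373, 492 and 784 CPM in control. Cyp51 and Tm7sf2 were lowest on day 1 in both treatments, and Msmo1 was highest on day 3 in both. Nsdhl, which acts with Msmo1 in C4 demethylation, stood at 125, 147 and 156 CPM with dexamethasone, against 133, 186 and 196 CPM in control. Hsd17b7, the keto reductase of the same complex, stood at 35.8, 57.6 and 56.4 CPM with dexamethasone, against 63.7, 63.7 and 87.1 CPM in control. Every dexamethasone plate was thus below every control plate for Hsd17b7. Ebp, the double bond isomerase, stood at 107, 98.5 and 151 CPM with dexamethasone, against 115, 114 and 172 CPM in control. Sc5d, the C5 desaturase, stood at 163, 199.6 and 208 CPM with dexamethasone, against 149.7, 229 and 241 CPM in control. Dhcr7, whose product is cholesterol itself in 1 branch of the pathway, stood at 119, 122 and 109 CPM with dexamethasone, against 120.5, 96.7 and 81.04 CPM in control. Dhcr7 was the only sterol enzyme lower on day 3 than on day 1 in both treatments.

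The regulators showed no common direction. Insig1, an anchor of SREBP and Scap that SREBPs also induce, stood at 246, 155 and 233 CPM on dexamethasone days 1, 2 and 3, against 269, 256 and 301 CPM on control days, so that every dexamethasone plate was below every control plate. Its relative Insig2 stood at 19.1, 26.7 and 17.5 CPM with dexamethasone, against 13.9, 22.5 and 34.9 CPM in control. On the plate where a single cell weighed most, that cell gave 24.6% of the Insig2 counts. Srebf1 stood at 117, 146 and 149.8 CPM with dexamethasone, against 138, 139 and 98.3 CPM in control. Srebf2, the isoform that favours cholesterol genes, stood at 102, 149 and 125 CPM with dexamethasone, against 122, 179.9 and 111 CPM in control. Scap stood at 74.03, 87.9 and 56.9 CPM with dexamethasone, against 84.5, 53.5 and 43.5 CPM in control. By CPM both Srebf1 and Scap were higher with dexamethasone on days 2 and 3 and lower on day 1, but by TMM-scaled CPM the day 2 ratio of Srebf1 was -0.04. Stard4, which carries cholesterol between membranes, stood at 182, 169 and 143 CPM with dexamethasone, against 151, 152 and 129 CPM in control. Acat2, a cytosolic thiolase that supplies acetoacetyl-CoA, stood at 152, 134 and 153 CPM with dexamethasone, against 173, 152 and 164 CPM in control.

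The fatty acid enzymes mostly ran opposite to the sterol enzymes over the days. Acly, which splits citrate to give cytosolic acetyl-CoA, stood at 582, 564 and 442 CPM with dexamethasone, against 754, 508 and 427 CPM in control. Acaca, which makes malonyl-CoA, stood at 53.4, 44.2 and 41.3 CPM with dexamethasone, against 46.3, 36.03 and 18.35 CPM in control. Fasn, the fatty acid synthase, stood at 329.7, 239.6 and 202 CPM with dexamethasone, against 382, 170.3 and 104 CPM in control. All 3 were lower on each later day in both treatments. The Poisson interval of the Fasn level, which covers the counting error of reads only, was 199 to 204 CPM on dexamethasone day 3 and 103 to 106 CPM on control day 3. Elovl6, which elongates palmitate, stood at 224, 182 and 128 CPM with dexamethasone, against 230.2, 158 and 133 CPM in control. The desaturase Scd2 stood at 469, 533 and 405 CPM with dexamethasone, against 549, 443 and 416 CPM in control. Its paralog Scd1 stood at 27.4, 65.2 and 55.6 CPM with dexamethasone, against 30.4, 87.7 and 64.01 CPM in control. Scd1 was the only one of the 6 higher on days 2 and 3 than on day 1 in both treatments.

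Between day 3 and day 1, which asks how the genes change as the culture ages, the sterol and fatty acid arms differed in opposite directions. The log2 ratio of day 3 over day 1 was above 0 in both treatments for 15 of 17 sterol enzymes and below 0 in both for 5 of 6 fatty acid enzymes. Over the 8285 genes at 10 CPM or more these shares were 32.6% above and 38.3% below, and over all 30 genes 17 were above and 8 below. The median ratio of the sterol enzymes was 0.53 with dexamethasone and 0.64 in control, and that of the fatty acid enzymes -0.33 with dexamethasone and -0.73 in control, against medians over all those genes of -0.03 and -0.06. All ratios are of CPM scaled by trimmed mean of M values (TMM) with a prior count of 2. By library totals alone the same 15 and 5 enzymes kept their sign. The late erythroid marker sums given above also differ between the days in both treatments, and their part in these ratios was not tested.

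**Figure D2:**
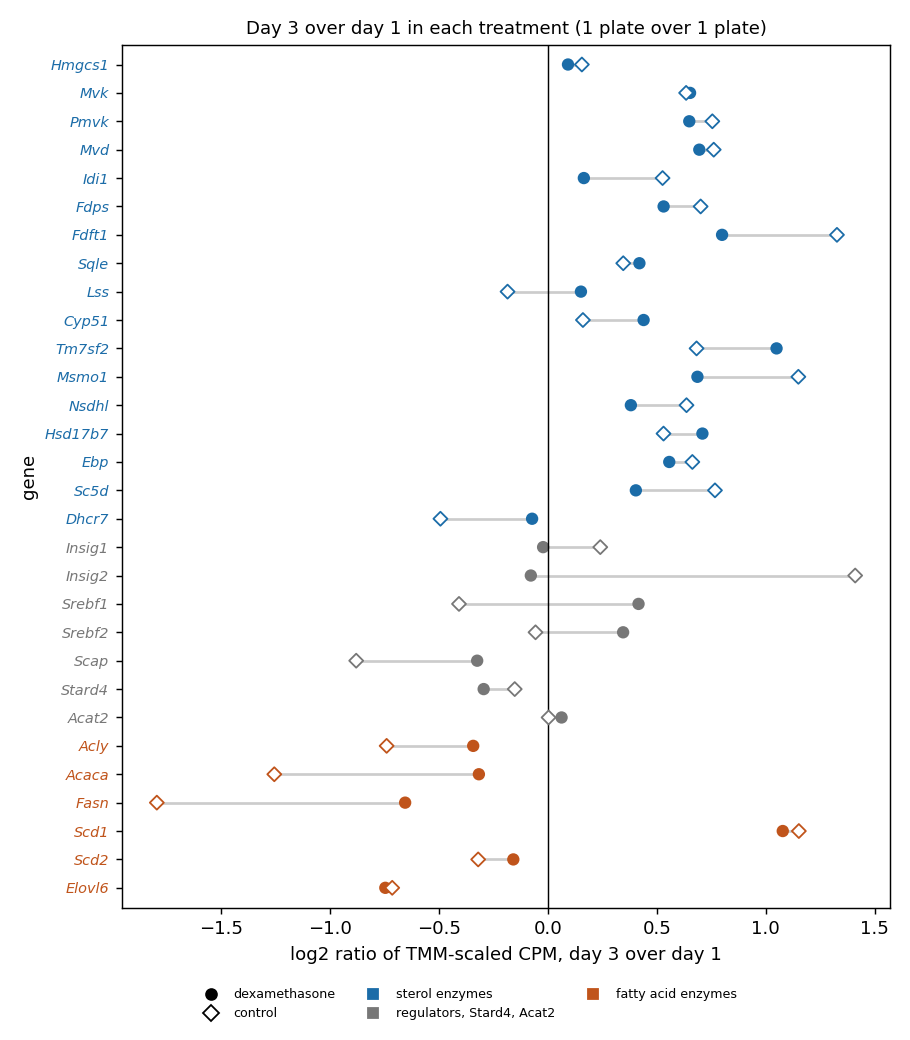
Log2 ratio of TMM-scaled CPM, day 3 over day 1, for each gene, with dexamethasone as filled circles and control as open diamonds, and with sterol enzymes in blue, fatty acid enzymes in orange and the other genes in grey. All blue points but 3 lie above 0, while the orange points other than Scd1 lie below 0, down to -1.79 for Fasn in control against -0.65 with dexamethasone.

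In the additive fit of day and dexamethasone over the 6 plates, none of the 20040 genes tested passed an edgeR adjusted p of 0.05 for day 3 against day 1 (0% called), so none of the 30 did. At an unadjusted p under 0.05 the fit had 2907 genes (14.5%) and 16 of the 30, among them 12 of 17 sterol enzymes, each higher, and 4 of 6 fatty acid enzymes, Scd1 higher and Acly, Fasn and Elovl6 lower. DESeq2 called 2061 genes (10.3%) on the same sums and 11 of the 30. Higher were Pmvk, Mvd, Fdps, Fdft1, Tm7sf2, Msmo1, Ebp, Sc5d and Scd1, 9 genes, where 5.28% of all were called higher. Lower were Fasn and Elovl6, where 5% of all were called lower. With 4326 genes at a mean of 50 CPM or more, edgeR called 545 (12.6%) and 7 of the 26 tested. Of these Pmvk, Mvd, Fdft1, Msmo1 and Scd1 were higher, against 7.44% of all, and Fasn and Elovl6 lower, against 5.15% of all. At an unadjusted edgeR p under 0.05 the set at 50 CPM or more had 1384 genes (32%) and 15 of the 26 (57.7%). For Msmo1 the fit gave 0.92 on the log2 scale (SE 0.16, edgeR adjusted p = 0.225), higher in both treatments. For Fasn it gave -1.23 (SE 0.31, edgeR adjusted p = 0.255), lower in both. Scd1 had 1.11 (SE 0.18, edgeR adjusted p = 0.225) and Fdft1 1.05 (SE 0.22, edgeR adjusted p = 0.228). The count of 16 was 8 without the dexamethasone day 3 plate, 7 without the control day 1 plate and 6 without the control day 3 plate.

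By day 2 the same arms were already apart in sign. Day 2 over day 1 was above 0 for 14 of 17 sterol enzymes with dexamethasone and 16 of 17 in control, and for 2 of 6 fatty acid enzymes with dexamethasone and 1 of 6 in control, against 48.3% and 47.8% of the 8285 genes. The median ratio of the sterol enzymes was 0.30 with dexamethasone and 0.39 in control, and that of the fatty acid enzymes -0.15 with dexamethasone and -0.36 in control, against medians over all those genes of -0.02 and -0.03. In the fit none of 20040 genes was called by edgeR (0%), with 2446 (12.2%) and 10 of the 30 at an unadjusted p under 0.05. The count of 10 was 4 without the dexamethasone day 2 plate, 5 without the dexamethasone day 3 plate, 2 without the control day 1 plate and 1 without the control day 2 plate, and it was 6 without cells carrying neutrophil or monocyte markers. DESeq2 called 1550 genes (7.73%), with Fdft1, Tm7sf2 and Scd1 among them. At 50 CPM or more edgeR called 233 (5.39%), with Scd1 alone of the 26. At an unadjusted edgeR p under 0.05 that set had 1167 genes (27%) and 11 of the 26 (42.3%). Scd1 was higher in both treatments, and the fit gave 1.44 on the log2 scale with an SE of 0.18 and an edgeR adjusted p of 0.296.

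Dexamethasone against control asks how the glucocorticoid alters these genes. Most sterol enzymes were somewhat lower with dexamethasone, in most cases by less than 1.5-fold, when plates were compared by their sums, and the fatty acid enzymes had no common direction. The sterol sum of the median cell was instead 2950 and 3461 CPM on dexamethasone days 1 and 2, against 2787 and 3192 CPM on control days 1 and 2, although in cells thinned to 500000 counts the day 2 medians were 3492 CPM with dexamethasone and 3602 CPM in control. The daily log2 ratio of dexamethasone over control was below 0 for 13, 14 and 11 of 17 sterol enzymes on days 1, 2 and 3, with medians of -0.14, -0.31 and -0.24. The medians over the 8285 genes were -0.05, -0.03 and -0.02. For 12 of the 30 genes, among them 9 sterol enzymes, the ratio was below 0 on all 3 days, against 24.5% of the 8285 genes. By library totals, which raise the day 2 ratios by 0.113, it was 11 of the 30, since Msmo1 was then higher on day 1. Stard4 and Acaca were above 0 on all 3 days, against 19.8% of the 8285 genes. All dexamethasone plates lay below all control plates for Hsd17b7 and Insig1, against 6.84% of those genes, and above them for none of the 30, against 7.99%.

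**Figure D3:**
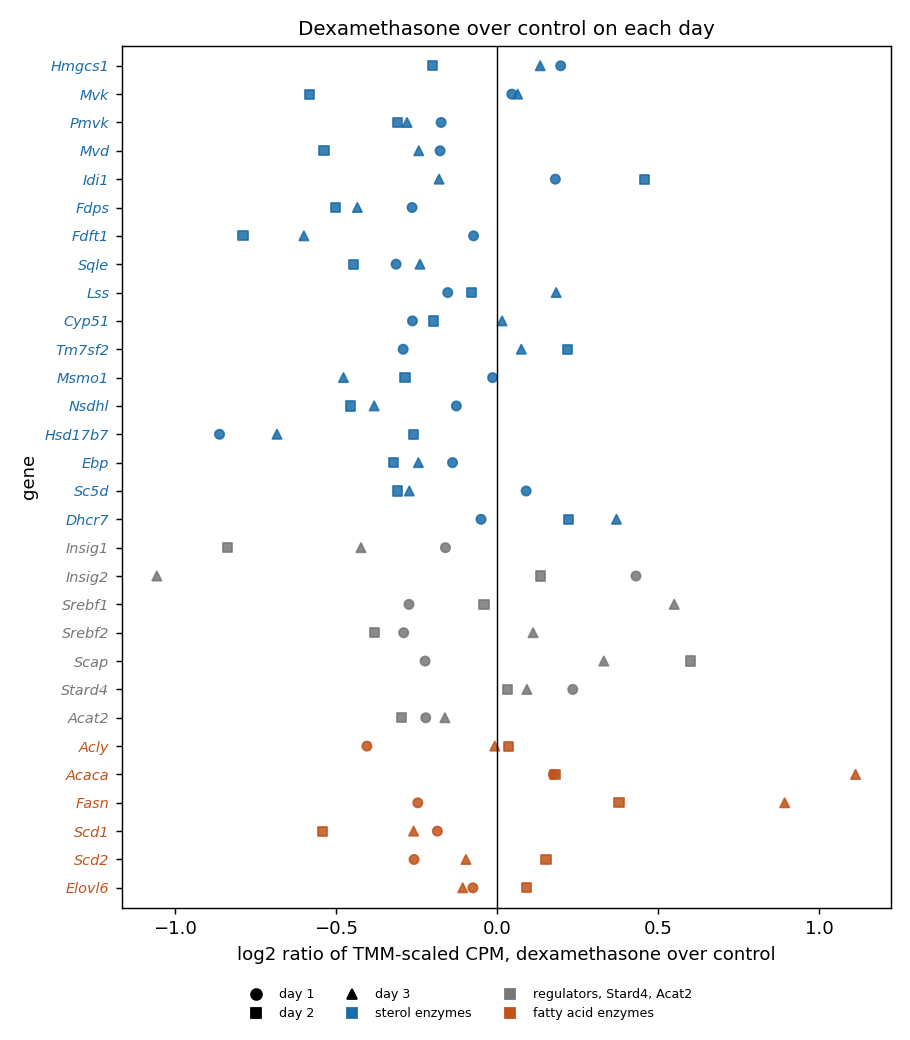
Log2 ratio of TMM-scaled CPM, dexamethasone over control, for each gene on day 1 (circle), day 2 (square) and day 3 (triangle), coloured by group as labelled. Most blue points lie left of 0, those of Hsd17b7 and Insig1 lie left of 0 on each day, and the points farthest right are Acaca (1.11) and Fasn (0.89) on day 3.

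Over the 3 days together, none of 20040 genes passed an edgeR adjusted p of 0.05 for dexamethasone (0% called), and the smallest adjusted p was 0.457. At an unadjusted p under 0.05 there were 2070 genes (10.3%) and 5 of the 30, each lower. Hsd17b7, lower on each day, had a fitted value of -0.60 on the log2 scale with an SE of 0.17 and an edgeR adjusted p of 0.457. Fdft1 had -0.49 with an SE of 0.18 and an edgeR adjusted p of 0.477. Insig1 had -0.47 (SE 0.17), Fdps -0.40 (SE 0.11) and Sqle -0.33 (SE 0.10). DESeq2 called 1258 genes (6.28%) and 1 of the 30, Hsd17b7, at -0.63 (DESeq2 adjusted p = 0.0486). At 50 CPM or more edgeR called 38 genes (0.878%) and none of the 26. At an unadjusted edgeR p under 0.05 that set had 1046 genes (24.2%) and 3 of the 26 (11.5%), a lower share than over all its genes. The count of 5 was 1 without either day 2 plate and 0 without either day 3 plate, and it was 2 by library totals. The median of the 30 was -0.16 against 0.07 over all genes tested, with 21 negative, and the median of the 17 sterol enzymes was -0.24 with 13 negative. The late erythroid, neutrophil, megakaryocyte and mast cell marker sums also differed between treatments, and their part in these values was not tested. With cells carrying neutrophil or monocyte markers left out, the median of the 30 was -0.18, and 10 of them, against 2333 of 19419 genes, had an unadjusted p under 0.05.

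Acaca and Fasn had the highest day 3 ratios of the 30 genes. The ratio of Fasn was -0.25, 0.38 and 0.89 on days 1, 2 and 3, and that of Acaca 0.17, 0.18 and 1.11. A rise on each later day was also seen for Srebf1 (-0.27, -0.04 and 0.55), Dhcr7 (-0.05, 0.22 and 0.37), Lss and Cyp51. The ratios of Msmo1 and Insig2 fell on each later day. In a fit with a separate slope over days per treatment, added after the data were seen, the slope of Fasn was higher with dexamethasone by 0.57 log2 units per day (SE 0.18, edgeR adjusted p = 1). Its unadjusted p was 0.027, 1 of the 30 was under 0.05, and 667 of 20040 genes were (3.33%), while none was called (0%). Acly, Scd1, Scd2 and Elovl6 had day 3 ratios of -0.01, -0.26, -0.10 and -0.11. On day 3, 2 of the 6 fatty acid enzymes were thus above 0 and 4 below.

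In single cells Fasn was found in nearly all dexamethasone cells and in fewer of the control cells on the later days. A count of Fasn was found in 100%, 100% and 98.9% of dexamethasone cells on days 1, 2 and 3, against 98.9%, 89.6% and 75.3% of control cells. The exact Clopper-Pearson interval on day 3 was 94.2% to 99.97% with dexamethasone and 65.2% to 83.6% in control. It covers the sampling of cells within 1 plate only, so it does not measure the spread between plates and does not test dexamethasone. In cells thinned to 500000 counts, with 5 dexamethasone and 2 control cells too shallow, these day 3 shares were 97.8% and 65.9%. Cells under 10 CPM of Fasn made up 2.13%, 2.17% and 7.45% with dexamethasone, against 2.13%, 31.3% and 49.5% in control. The median cell had 302, 227 and 169 CPM with dexamethasone, against 368, 107 and 12.8 CPM in control. The 90th percentile on day 3 was 360 CPM with dexamethasone and 237 CPM in control, so control day 3 held cells well inside the range of dexamethasone cells beside many near 0. On day 3 the 10th percentile was 42.6 CPM with dexamethasone, while the 25th percentile in control was 0.649 CPM.

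Acaca showed the same order, with a count in 98.9%, 94.6% and 92.6% of dexamethasone cells, against 92.6%, 72.9% and 52.7% of control cells. Msmo1 had a count in at least 97.9% of cells on every plate. Its median cell had 330, 382 and 445 CPM with dexamethasone, against 268, 338 and 624 CPM in control. Other sterol enzymes had more low cells. Cells under 10 CPM on control day 3 ranged from 3.23% (Fdps) to 61.3% (Hsd17b7) over the sterol enzymes, with 8.60% for Msmo1. Over the fatty acid enzymes they ranged from 20.4% (Acly) to 67.7% (Acaca). For Lss the share was 7.45% on control day 1 and 41.9% on control day 3, and for Hmgcs1 3.19% and 25.8%. The Insig1 median cell had 202, 122 and 176 CPM with dexamethasone, against 236, 163 and 212 CPM in control, lower with dexamethasone on each day as in the sums. For Hsd17b7 the median cell had 26.5, 40.8 and 41.5 CPM with dexamethasone, against 44.3, 18.3 and 2.07 CPM in control. The median cell of Hsd17b7 was therefore higher with dexamethasone on days 2 and 3, opposite to the plate sums. In the upper tail the order was that of the sums, with a 90th percentile on day 3 of 121 CPM with dexamethasone and 310.3 CPM in control.

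**Figure D4:**
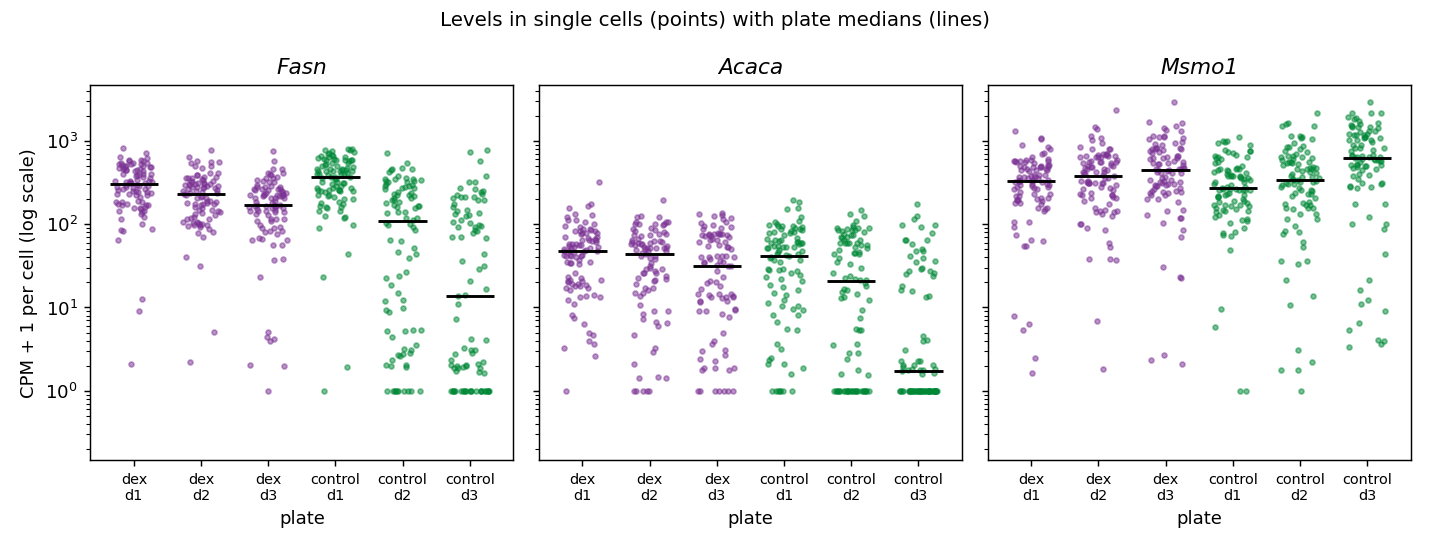
CPM + 1 per cell on a log axis for Fasn, Acaca and Msmo1, with 1 point per kept cell, a line at the plate median, dexamethasone plates in purple on the left and control plates in green on the right. On control days 2 and 3 the Fasn and Acaca points split into an upper cloud and a lower one near 0. Most Msmo1 points stay above 100 CPM on each plate. Msmo1 does not stand for every sterol enzyme, as 41.9% of control day 3 cells had under 10 CPM of Lss.

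Summed over the 6 enzymes, fatty acid transcripts varied more between control cells on the later days. The coefficient of variation of the sum was 36.3%, 39.8% and 51.6% on dexamethasone days 1, 2 and 3, against 38.6%, 73.2% and 79.9% on control days. For the sum of the 17 sterol enzymes it was 48.9%, 49.4% and 62.9% with dexamethasone, against 48.2%, 63.4% and 62.4% in control. On day 3 the sterol sum of the median cell was 3275 CPM with dexamethasone and 3798 CPM in control. The fatty acid sum of the median cell was 1655, 1588 and 1148 CPM with dexamethasone, against 1903, 1158 and 903 CPM in control. Cells with under 10 CPM of the summed fatty acid enzymes were 5.38% of control day 3 and none of the other plates.

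The genes varied together from cell to cell. Over 105 pairs of the 15 sterol enzymes at 50 CPM or more, the median Spearman correlation across cells was 0.32, 0.25 and 0.45 on dexamethasone days 1, 2 and 3 (94, 92 and 94 cells), against 0.32, 0.30 and 0.37 on control days (94, 96 and 93 cells). Over all pairs of 4326 genes at that level the medians were 0.02, 0.01 and 0.02 with dexamethasone, against 0.01, 0.05 and 0.10 in control. Over the 10 pairs of 5 fatty acid enzymes the median was 0.27, 0.15 and 0.42 with dexamethasone, against 0.32, 0.55 and 0.42 in control. Hmgcs1 and Insig1, enzyme and feedback regulator, had 0.49, 0.38 and 0.63 with dexamethasone, against 0.57, 0.57 and 0.58 in control. Between a sterol and a fatty acid enzyme the median over 75 pairs was 0.27, 0.19 and 0.41 with dexamethasone, against 0.22, 0.33 and 0.34 in control. Cells of a plate share a library and differ in depth, and after thinning to 500000 counts the sterol medians ran from 0.237 to 0.435 over the 6 plates.

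The arms differed in how they followed the late erythroid markers within most plates. The Spearman correlation of the fatty acid sum with the summed late erythroid markers was -0.41 on dexamethasone day 3, against -0.74 on control days 2 and 3. For the sterol sum it was -0.10 on dexamethasone day 3, against -0.19 and -0.31 on control days 2 and 3. The median gene at 50 CPM or more had -0.10 on dexamethasone day 3, against -0.22 and -0.28 on control days 2 and 3, and 39.7% and 47.3% of such genes were below -0.3 on those control plates. With all cells the sterol sum was thus near the median gene on these plates, and the fatty acid sum was below it. In thinned cells the sterol sum had -0.04 on dexamethasone day 3, against -0.04 and -0.31 on control days 2 and 3. The median gene then had -0.09 on dexamethasone day 3, against -0.19 and -0.28 on control days 2 and 3. On control day 2 the sterol sum was then above the median gene. The fatty acid sum stayed below it, at -0.38 on dexamethasone day 3, against -0.67 and -0.76 on control days 2 and 3. Sums were compared with single genes only, not with sums of other genes. On control days 2 and 3 the fatty acid sum also correlated with the number of genes detected, at 0.70 and 0.61, and with the total count, at 0.47 and 0.41, so that marker level, complexity and depth move together. With cells carrying those 2 or more neutrophil or monocyte markers left out, the fatty acid correlation was -0.59 on dexamethasone day 3, against -0.74 and -0.78 on control days 2 and 3. The sterol correlation was then -0.34 on dexamethasone day 3, against -0.19 and -0.39 on control days 2 and 3. On day 1, when late markers were low, the fatty acid correlation over all cells was 0.28 with dexamethasone and 0.07 in control, and the sterol correlation was 0.48 with dexamethasone and 0.46 in control. The median gene had 0.05 on dexamethasone day 1 and 0.06 on control day 1. On dexamethasone day 2 the arms hardly differed, at -0.20 for the fatty acid sum and -0.12 for the sterol sum, against -0.01 for the median gene.

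**Figure D5:**
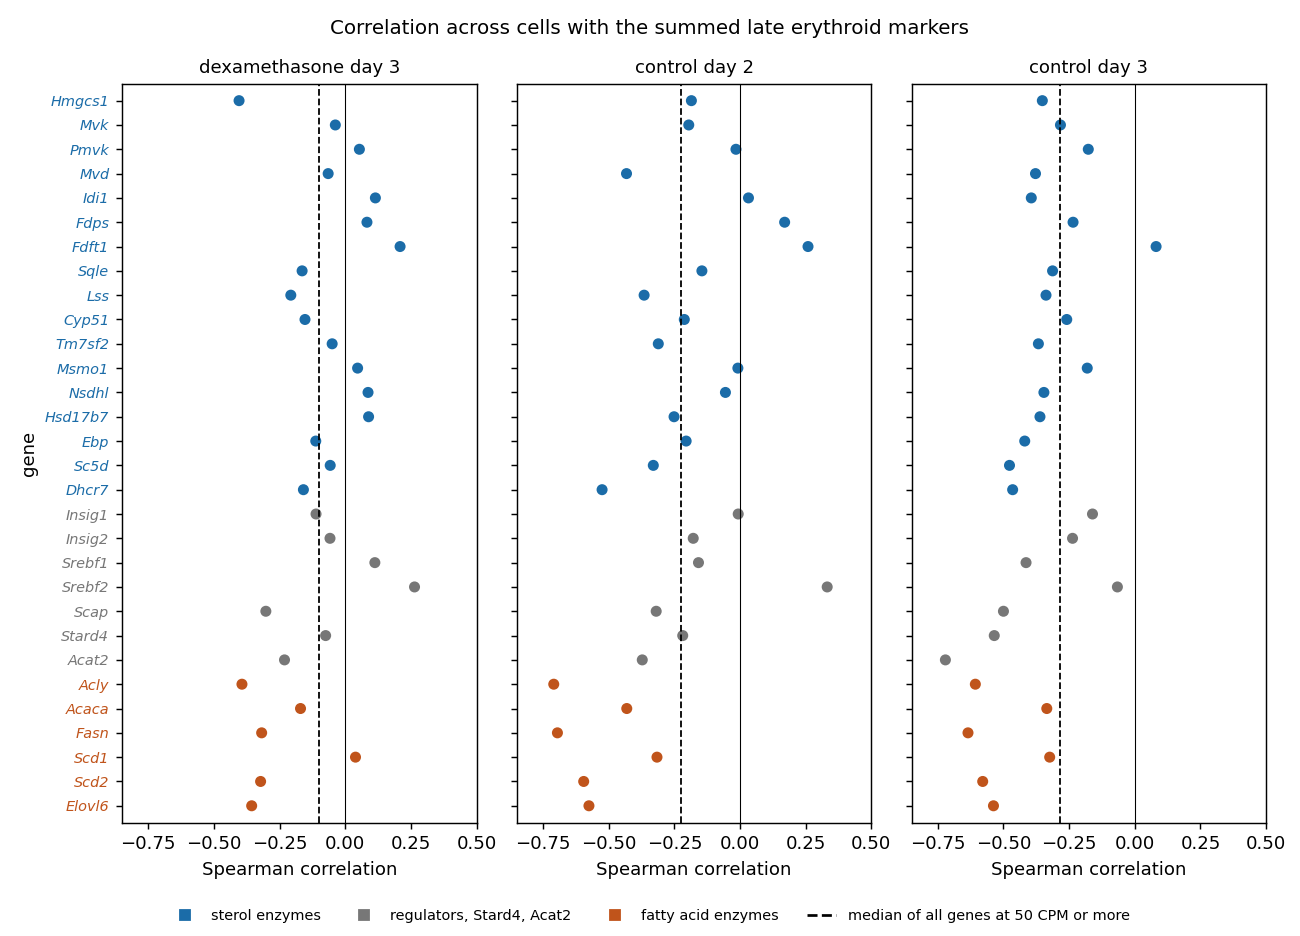
Spearman correlation across the cells of a plate between each gene and the summed late erythroid markers, on dexamethasone day 3, control day 2 and control day 3, with a dashed line at the median of all genes at 50 CPM or more. The orange fatty acid enzymes lie left of the dashed line except Scd1 on dexamethasone day 3, with Acly at -0.71 and Fasn at -0.70 on control day 2, while Srebf2 lies right of it on each plate.

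Single genes departed from their arm in these correlations. Srebf2 had 0.26 on dexamethasone day 3, against 0.33 and -0.07 on control days 2 and 3, and Fdft1 had 0.21, against 0.26 and 0.08. Dhcr7 had -0.16 on dexamethasone day 3, against -0.53 and -0.47 on control days 2 and 3, the lowest of the sterol enzymes on control day 2. Acat2 had -0.23 on dexamethasone day 3, against -0.37 and -0.72 on control days 2 and 3, the lowest of the 30 on control day 3. Dhcr7 is also the sterol enzyme that was lower on day 3 than on day 1 in both treatments.

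Among 51 other genes of the same and adjoining pathways, 50 matched the deposited symbols and 49 were tested, and Ch25h, which makes an oxysterol, had no count on any plate. For dexamethasone 26 had a positive and 23 a negative fitted log2 fold change, with a median of 0.10 against 0.07 over all genes. None passed the edgeR adjusted threshold, nor did any of the 20040 genes. At an unadjusted edgeR p under 0.05 there were 9 of the 49, 3 higher and 6 lower, against 10.3% of all genes. For day 3 against day 1 there were 9 of the 49, 2 higher and 7 lower, against 14.5% of all genes. Mylip, a ubiquitin ligase that removes lipoprotein receptors, stood at 1.63, 1.81 and 10.3 CPM on dexamethasone days 1, 2 and 3, against 1.85, 16.6 and 27.4 CPM on control days, and on 1 plate a single cell gave 37.6% of its counts. Lbr, a nuclear envelope protein that is also a sterol reductase of the step of Tm7sf2, stood at 568, 607 and 628 CPM with dexamethasone, against 681, 1002 and 1023 CPM in control, with all dexamethasone plates lower. Hacd2, a dehydratase of fatty acid elongation, stood at 46.2, 44.7 and 40.6 CPM with dexamethasone, against 27.8, 24.6 and 26.8 CPM in control, with all dexamethasone plates higher. Per length, Lbr (158 CPM per kb) was above all 30 genes, and far above Tm7sf2 (5.78 CPM per kb), which codes for the same activity. Lbr shares 509 exonic bases with other genes, of which Dnah14 lies on the opposite strand.

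Mid1ip1, which promotes the assembly of acetyl-CoA carboxylase, stood at 75.3, 67.01 and 63.1 CPM with dexamethasone, against 95.5, 93.4 and 112 CPM in control, with all dexamethasone plates lower. Lbr, Hacd2 and Mid1ip1 were named for the size of their fitted dexamethasone value, so the separation of their plates is not independent of that choice. Of the 40 other pathway genes at 10 CPM or more, all dexamethasone plates lay above all control plates for 4 and below them for 6. The shares over the 8285 genes were 7.99% and 6.84%. Rnf139, a ubiquitin ligase of sterol sensing, stood at 55.6, 54.8 and 69.7 CPM with dexamethasone, against 49.99, 98.1 and 148 CPM in control. Abcg1, a sterol efflux transporter, stood at 29.1, 172 and 65.9 CPM with dexamethasone, against 28.5, 4.75 and 17.4 CPM in control. Lower Rnf139 and higher Abcg1 with dexamethasone were seen on days 2 and 3, and on 1 plate a single cell gave 51.1% of the Abcg1 counts. Oxsm, a mitochondrial fatty acid synthase, stood at 18.9, 47.1 and 29.6 CPM with dexamethasone, against 19.8, 29.7 and 5.18 CPM in control.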

How the data were processed

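Polyadenylated RNA of single cells was counted per gene in 6 plates, and the deposited values are whole-number counts. The submitters' processing notes name the aligner STAR 2.4, the counter featureCounts and the mouse build GRCm38. Annotation, strand setting and the handling of reads with several positions are not stated in the sources used here, and nothing names molecular identifiers. Poisson intervals therefore cover the counting error of reads only, and may be too narrow for molecules. Clopper-Pearson intervals cover the sampling of cells within a plate only. Of 576 value columns, 575 matched a labelled well and 1 was not used. The header holds 1 empty cell, which was left out. In this reading 4 known glucocorticoid-induced genes sum to 222 to 368 CPM on dexamethasone plates and 61.7 to 73.4 CPM on control plates, so their direction is not independent of the reading.

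Wells were kept with at least 50000 counts, 1500 genes and at most 20% mitochondrial counts, which removed 12. No doublet caller was run on the sorted wells. Counts of the kept cells were summed per plate. The main test was the quasi-likelihood F test of edgeR 4.0.16 in R 4.3.3 on the plate sums, additive in day and treatment, 2 residual degrees of freedom, TMM scaling, filterByExpr and Benjamini-Hochberg adjustment over 20040 genes at 0.05. The standard error (SE) is the size of the log2 fold change divided by the square root of F. The p-values measure the spread between plates, which may be technical and also includes any drift of the treatment effect between days. Within a day there is no test. Printed CPM use the plate total, and log2 ratios use TMM-scaled CPM with a prior count of 2. DESeq2 1.42.0 was an alternative. Confidence intervals are at 95%. Correlations over cells are descriptions. Thinned cells were drawn down to 500000 counts, which left out 32 shallower cells.

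All 30 genes are named, and 7 of the other pathway genes. Those 7 are the one with daily ratios of the same sign on 3 days and at least 1 in size on 2, and 6 more by the size of the fitted dexamethasone fold change at 10 CPM or more. Genes and lists were chosen with earlier results of these data known.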

Additional observations from a re-analysis of the deposited data

How the results depend on the processing

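Of the other settings, 148 values that answer a comparison and 695 of single genes kept their direction and side of the threshold (a count within 1.5 times, a value within its spread). Of the values that answer a comparison, 17 moved further and 4 changed sign. Of the values of single genes, 19 passed the threshold, each with DESeq2 or at 50 CPM or more, and 1 changed sign. Genes whose main log2 fold change was smaller than its SE were left out of the single-gene tally, so sign changes among them are not counted. A value called under neither setting counted as keeping its side of the threshold. With any plate left out edgeR called no gene at all in any comparison, so these fits say nothing about calls of the 30 in particular. With genes at 50 CPM or more, 7 were called for day 3 and 1 for day 2. With DESeq2, 11 were called for day 3, 3 for day 2 and 1 for dexamethasone. The median fold change of the 30 for dexamethasone was -0.0899 by library totals and -0.108 at 50 CPM or more, and -0.207 to -0.153 with a plate left out. The median over all genes tested was 0.0723 in the main fit, 0.14 by library totals and 0.0015 at 50 CPM or more. For day 3 the median of the 30 was 0.261 by library totals, 0.276 at 50 CPM or more and 0.378 with cells weighted alike, and 0.254 to 0.361 with a plate left out. Over all genes tested the day 3 medians were -0.0928, -0.0067 and -0.0307 in the first 3 of these settings. The sterol median with a plate left out was -0.317 to -0.194 for dexamethasone and 0.494 to 0.651 for day 3. The fatty acid median for dexamethasone, -0.0496, reversed to 0.0185 by library totals, 0.0207 without the dexamethasone day 1 plate and 0.0204 without day 1, and ran from -0.138 to 0.0207 with a plate left out, while for day 3 it ran from -0.761 to -0.388. Insig2 for day 3, at 0.71, was -0.00673 without the control day 3 plate, and ran up to 1.34 without the dexamethasone day 3 plate. The within-day medians of the 30, -0.168, -0.230 and -0.135 on days 1, 2 and 3, were -0.116 and -0.0778 on days 2 and 3 by library totals, and -0.022, -0.014 and 0.216 on days 1, 2 and 3 for the median thinned cell, so that the day 3 sign differs between sum and median cell. The shift by library totals is that of the plate scaling, which moves the ratios of all genes by about 0.113 on day 2 and 0.057 on day 3. The cause of the other shifts was not tested. Single plates, 1 per group, limit every comparison within a day.

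No paired analysis was possible because the numbers in the labels are wells of a plate and do not link cells across plates. Day is a term of the fit, and without it 0 of 18158 genes, and so 0 of the 30, were called for dexamethasone.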
